A study of Rattus norvegicus with 12 samples.

Results

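Dopamine is made from tyrosine by tyrosine hydroxylase, encoded by Th, and aromatic L-amino acid decarboxylase, encoded by Ddc, and it acts on the receptors encoded by Drd1 and Drd2. These 4 genes were chosen by their Ensembl identifiers, ENSRNOG00000020410 for Th, ENSRNOG00000004327 for Ddc, ENSRNOG00000023688 for Drd1 and ENSRNOG00000008428 for Drd2, from 29516 identifiers measured in the preoptic area of newborn rats. All 4 were among the 16310 genes that were expressed highly enough to be tested. The preoptic area lies at the front of the hypothalamus, and its cells are shaped by gonadal hormones in the newborn. RNA was sequenced from zebularine females, vehicle females, zebularine males and vehicle males, with 3 libraries in each group. Pups received zebularine, which blocks DNA methyltransferases, or vehicle (0.1% "DNMSO", as the labels spell the solvent, made up in saline) on postnatal days 0 and 1. The preoptic area was collected on postnatal day 2. Strain, dose and the number of animals per library are not stated in the labels, so p-values measure the spread between libraries, which may be technical.

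Tyrosine hydroxylase performs the rate-limiting step, and its product is decarboxylated to dopamine by the second enzyme. Th marks all catecholamine neurons, and Ddc is also used by serotonin neurons. The D1 receptor couples to stimulatory G proteins and raises cyclic AMP, whereas the D2 receptor couples to inhibitory G proteins and also serves as an autoreceptor on dopamine neurons. Both receptors are densest in the striatum, which lies close to the preoptic area.

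Because zebularine acts on methylation of cytosine in CpG dinucleotides, these are in capitals in the sequence shown before a transcript start of each gene. The sequences are the 250 bases before a RefSeq transcript start in the rat assembly GRCr8, read 5′ to 3′ on the strand of the gene. The build used for the expression values is not given in the sources used here. The window of Th is chr1:207508219-207508468 on the minus strand, that of Ddc is chr14:90682784-90683033 on the minus strand, that of Drd1 is chr17:10546354-10546603 on the plus strand and that of Drd2 is chr8:58605153-58605402 on the plus strand.
Th: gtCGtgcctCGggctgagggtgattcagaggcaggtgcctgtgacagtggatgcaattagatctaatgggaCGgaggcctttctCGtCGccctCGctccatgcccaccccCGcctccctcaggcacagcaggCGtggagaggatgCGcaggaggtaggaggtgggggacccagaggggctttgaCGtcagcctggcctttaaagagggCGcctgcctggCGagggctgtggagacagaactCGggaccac
Ddc: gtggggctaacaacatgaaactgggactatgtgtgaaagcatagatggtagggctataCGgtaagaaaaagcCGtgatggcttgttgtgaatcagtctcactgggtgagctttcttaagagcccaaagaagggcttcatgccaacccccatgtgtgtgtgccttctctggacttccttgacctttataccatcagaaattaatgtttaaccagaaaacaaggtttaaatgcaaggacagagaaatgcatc
Drd1: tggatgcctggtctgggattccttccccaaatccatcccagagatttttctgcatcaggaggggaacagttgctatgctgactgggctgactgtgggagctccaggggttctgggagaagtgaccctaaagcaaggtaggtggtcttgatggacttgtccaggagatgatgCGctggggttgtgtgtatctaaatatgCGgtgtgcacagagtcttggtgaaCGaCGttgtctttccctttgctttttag
Drd2: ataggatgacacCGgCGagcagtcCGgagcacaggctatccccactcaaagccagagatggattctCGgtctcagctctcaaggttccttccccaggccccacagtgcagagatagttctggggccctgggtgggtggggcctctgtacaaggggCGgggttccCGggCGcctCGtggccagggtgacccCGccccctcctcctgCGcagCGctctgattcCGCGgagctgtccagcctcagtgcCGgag

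The windows shown for Th and Drd2 held more CpG dinucleotides than the median window, and those shown for Ddc and Drd1 held fewer. The windows of Th and Drd2 held 13 and 14 CpG dinucleotides, more than 70.6% and 72.4% of the 33469 upstream windows in the RefSeq table, whose median was 5. Their GC contents were 64.0% and 66.0%. The window of Drd1 lies before the one start the table gives and inside the span of the gene in the annotation. It held 4 CpG dinucleotides, more than 37.4% of all windows, and its GC content of 51.2% equalled their median. Ddc has 3 starts in the table, with 2, 3 and 5 CpG dinucleotides, more than 18.1%, 28.6% and 44.7% of all windows. The sequence shown belongs to the first of these starts, the one farthest upstream. The palindromic cyclic AMP response element TGACGTCA was found once in the Th window, with its first base at position -69 from the start, in none of the other member windows, and in 1.59% of all windows. A GC box, GGGCGG on either strand, was found in 2 places in the Drd2 window, in none of the other member windows, and in 30.5% of all windows. TATAAA, on either strand, was found in the first Ddc window alone among the members, and in 12.9% of all windows. These motifs did not overlap one another. They are matches of letters, an absent match says only that the letters are not in that window, and methylation was not measured in these data.

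Levels are given as RPKM, which scales the reads of a gene by the length of its model and by the depth of the library. The libraries held between 15851598 and 30474857 reads assigned to genes. On the first principal component, zebularine female replicate 3 lay at 50.4 and the remaining 11 libraries between -11.6 and 9.49, and its values of the 4 genes are named below. Neither the identity of the tissue nor other genes of the dopamine pathway could be checked by name, because the RefSeq table pairs none of its symbols with the identifiers in the files. Such genes are not analysed here.

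Th was expressed at 4.0 ± 1.64 RPKM over all libraries (SD, n = 12), which was higher than the mean level of 33.8% of tested genes. Zebularine females had 6.31, 3.97 and 2.47 RPKM, against 2.03, 5.50 and 6.68 RPKM in vehicle females. Zebularine males had 2.36, 3.47 and 4.01 RPKM, against 1.92, 5.19 and 4.07 RPKM in vehicle males. Treated and vehicle libraries overlapped in both sexes, and every group held both a library under 2.5 RPKM and a library over 4 RPKM. The lowest library, vehicle male replicate 1, rested on 78 reads with an exact 95% Poisson interval of 1.52 to 2.40 RPKM, and the highest, vehicle female replicate 3, on 254 reads with an interval of 5.88 to 7.55 RPKM. These intervals cover counting error alone, and they did not meet.

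Ddc, the second enzyme, stood at 4.77 ± 1.22 RPKM over all libraries (SD, n = 12). Zebularine females had 6.79, 6.02 and 3.72 RPKM, against 2.99, 5.42 and 6.40 RPKM in vehicle females. Zebularine males had 3.85, 4.36 and 4.98 RPKM, against 3.47, 5.24 and 4.03 RPKM in vehicle males. The groups again overlapped, and Ddc spanned 2.27-fold between its lowest and highest library where Th spanned 3.48-fold. The reads behind these values ran from 167 to 355 per library.

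Drd1, the stimulatory receptor, had the widest range of the 4 genes, 12-fold, and averaged 5.22 ± 4.71 RPKM (SD, n = 12). Zebularine females had 1.55, 5.55 and 6.24 RPKM, against 8.70, 3.02 and 2.18 RPKM in vehicle females. Zebularine males had 18.7, 2.93 and 2.93 RPKM, against 4.82, 2.22 and 3.84 RPKM in vehicle males. A single library, zebularine male replicate 1, carried 1274 Drd1 reads, where the other 11 libraries held between 74 and 495. The high mean of zebularine males came from that library, since the other two stood below 2 of the 3 vehicle males.

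Drd2, the inhibitory receptor, varied the least, 2.02-fold, around 2.74 ± 0.599 RPKM (SD, n = 12). Zebularine females had 2.35, 2.49 and 2.89 RPKM, against 3.80, 2.52 and 1.94 RPKM in vehicle females. Zebularine males had 3.91, 2.80 and 2.80 RPKM, against 2.81, 2.04 and 2.58 RPKM in vehicle males. The 2 libraries with the highest Drd2, zebularine male replicate 1 and vehicle female replicate 1, were also the 2 with the highest Drd1. Drd2 rested on between 340 and 969 reads per library, spread over a gene model of 8127 bases.

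**Figure D1:**
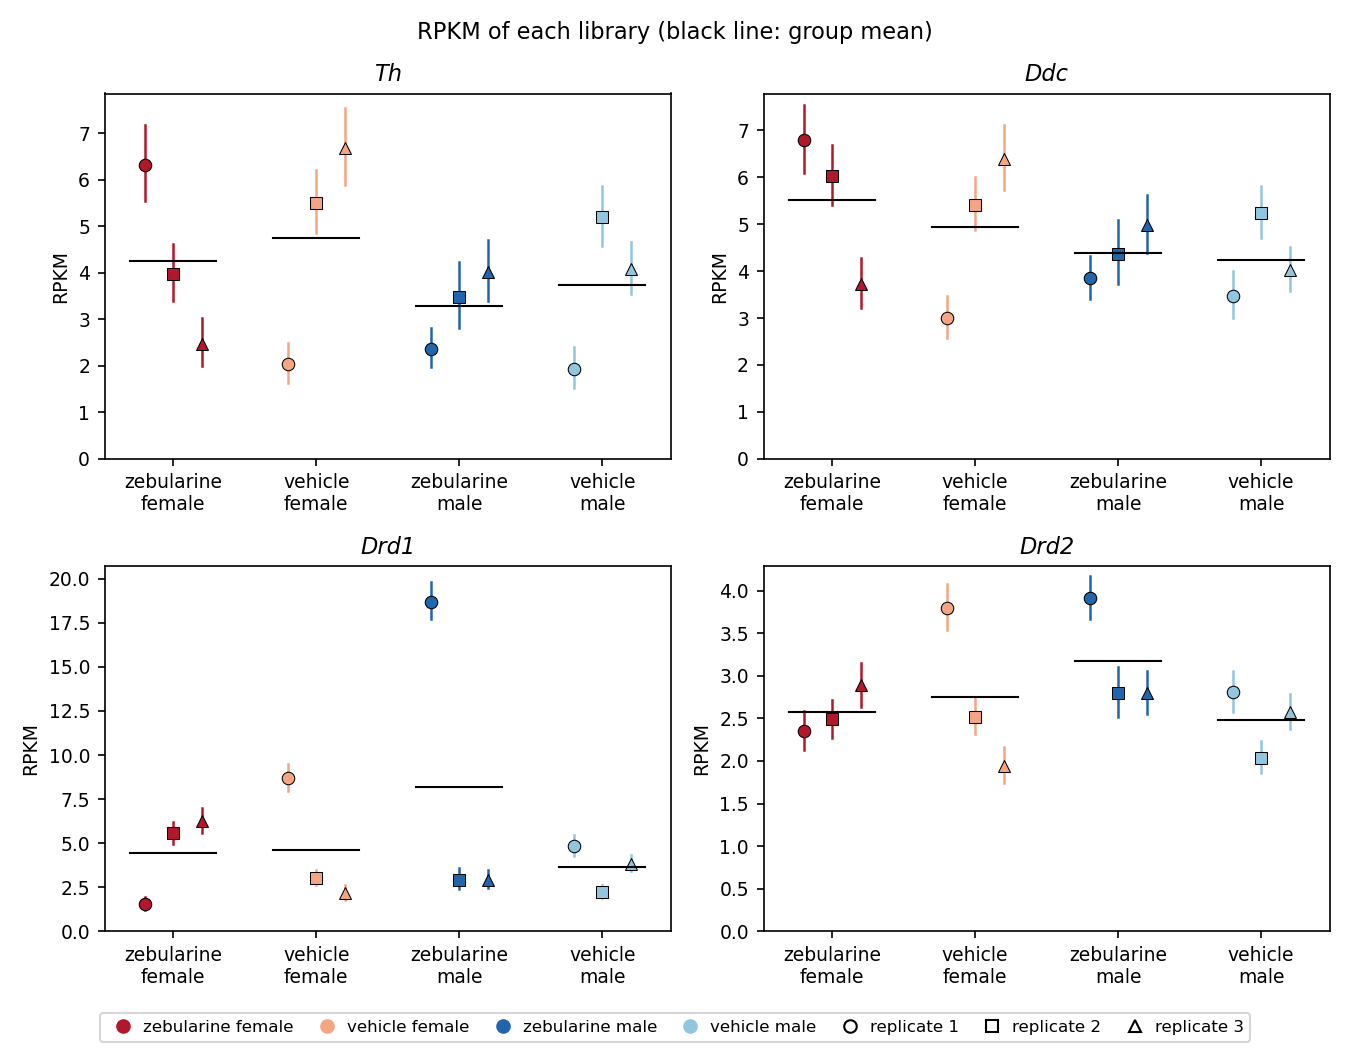
RPKM of Th, Ddc, Drd1 and Drd2 in each of the 12 libraries (vertical axis, from 0) by group (horizontal axis). Points are libraries, vertical lines are exact 95% Poisson intervals of the reads, and black lines are group means; the groups overlap for all 4 genes, and zebularine male replicate 1 stands at 18.7 RPKM of Drd1.

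By mean RPKM the order was Drd1, Ddc, Th and Drd2, but Ddc against Th was the single neighbouring pair whose difference passed. Ddc exceeded Th in 9 of 12 libraries, by 0.29 ± 0.28 on the log2(RPKM + 0.5) scale (SD, n = 12, two-sided exact sign-flip permutation p = 0.00732, adjusted over 3 pairs to 0.0220). Among vehicle libraries Ddc was the higher in 1 of 3 females and 2 of 3 males, with a mean log2 difference of 0.18. Among zebularine libraries the mean log2 difference was 0.39. The Drd1 mean was raised by a few libraries: Drd1 exceeded Ddc in 4 of 12 libraries, with a mean log2 difference of -0.14 ± 1.15 (SD, n = 12, exact permutation adjusted p = 0.669). Th exceeded Drd2 in 8 of 12 libraries (mean log2 difference 0.40 ± 0.77, SD, n = 12, exact permutation adjusted p = 0.153). Within the 4 groups no neighbouring pair had ranges free of overlap. The gene models measured 1764 bases for Th, 2415 for Ddc, 2236 for Drd1 and 8127 for Drd2, so an order per length depends on models whose annotation is not given in the sources used here.

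Zebularine was compared with vehicle to see whether inhibition of DNA methylation altered these genes, and none of the 4 passed. In the comparison over both sexes, 6 libraries against 6, 0 of 4 genes had an adjusted p under 0.05 by limma, where 0.405% of all tested genes did. At an unadjusted limma p under 0.05 there were also 0 of 4, against 7.56% of tested genes, and by limma-voom on recovered reads 0 of 4, against 0.503%. In bulk tissue, fewer cells of a type and less RNA per cell cannot be told apart. Th averaged 3.77 ± 1.44 RPKM under zebularine and 4.23 ± 1.94 RPKM under vehicle (SD, n = 6 each), and its log2 change was -0.09 ± 0.31 (SE), with a 95% interval of the fold between 0.585 and 1.5 (limma adjusted p = 0.956). Ddc averaged 4.95 ± 1.23 RPKM under zebularine and 4.59 ± 1.30 RPKM under vehicle (SD, n = 6 each), with a fold between 0.812 and 1.43 (limma adjusted p = 0.904). For Drd1 the means were 6.32 ± 6.32 RPKM under zebularine and 4.13 ± 2.46 RPKM under vehicle (SD, n = 6 each), and the interval of the fold, 0.575 to 2.64, was the widest of the 4 (limma adjusted p = 0.902). Drd2, at 2.87 ± 0.550 RPKM under zebularine and 2.62 ± 0.670 RPKM under vehicle (SD, n = 6 each), had the narrowest, 0.878 to 1.36 (limma adjusted p = 0.837).

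Within each sex the result was the same in count. In females 0 of 4 genes passed by limma, where 0.0429% of tested genes did, and in males 0 of 4, where 0% did. At an unadjusted limma p under 0.05 the shares of all tested genes were 5.40% in females and 7.58% in males, and 0 of the 4 members were among them in either sex. The Drd1 log2 change was -0.02 ± 0.71 (SE) in females and 0.62 ± 0.71 (SE) in males. Without zebularine male replicate 1 the male value was -0.21 and the value over both sexes, 0.30 with all libraries, was -0.11. Drd2 in males had the smallest unadjusted p of the members, 0.169, with 0.30 ± 0.20 (SE) on the log2 scale and a limma adjusted p of 0.713, and the value was 0.16 without zebularine male replicate 1 and 0.19 without vehicle male replicate 2. The male minus female difference of the zebularine effect passed for 0 of 4 genes and for 0% of tested genes, with 4.05% of tested genes at an unadjusted p under 0.05. Its largest member value was 0.63 ± 1.00 (SE) for Drd1, with a 95% interval from -1.57 to 2.83 on the log2 scale, and it was -0.20 without zebularine male replicate 1. Limma-voom on recovered reads called 0 of 4 members in females, where 0.00613% of tested genes passed, and 0 of all tested genes in males and for this difference.

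Sex differences were examined with and without the drug, and again 0 of 4 genes passed. Under vehicle the share of tested genes that passed by limma was 0.0123%, and 2.08% had an unadjusted p under 0.05. Under zebularine these shares were 0.0307% and 11.1%. By limma-voom 0 of 4 members passed in both, where the shares were 0.0123% under vehicle and 0.0184% under zebularine. Among vehicle libraries, Th averaged 3.73 ± 1.66 RPKM in males and 4.73 ± 2.42 RPKM in females (SD, n = 3 each), a log2 difference of -0.26 with a 95% interval from -1.22 to 0.70. Among zebularine libraries, Ddc averaged 4.4 ± 0.568 RPKM in males and 5.51 ± 1.60 RPKM in females (SD, n = 3 each), a log2 difference of -0.26 with an interval from -0.84 to 0.32. It was -0.11 without zebularine female replicate 1 and -0.50 without zebularine female replicate 3. Both enzymes had lower means in males than in females under either treatment, and all 4 of these differences had 95% intervals that include 0. In the 4 comparisons of 3 libraries with 3, none of the 4 genes was free of overlap, where 9.21% of tested genes were free of it for zebularine in females, 14.3% for zebularine in males, 6.63% for sex under vehicle and 15.4% for sex under zebularine.

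**Figure D2:**
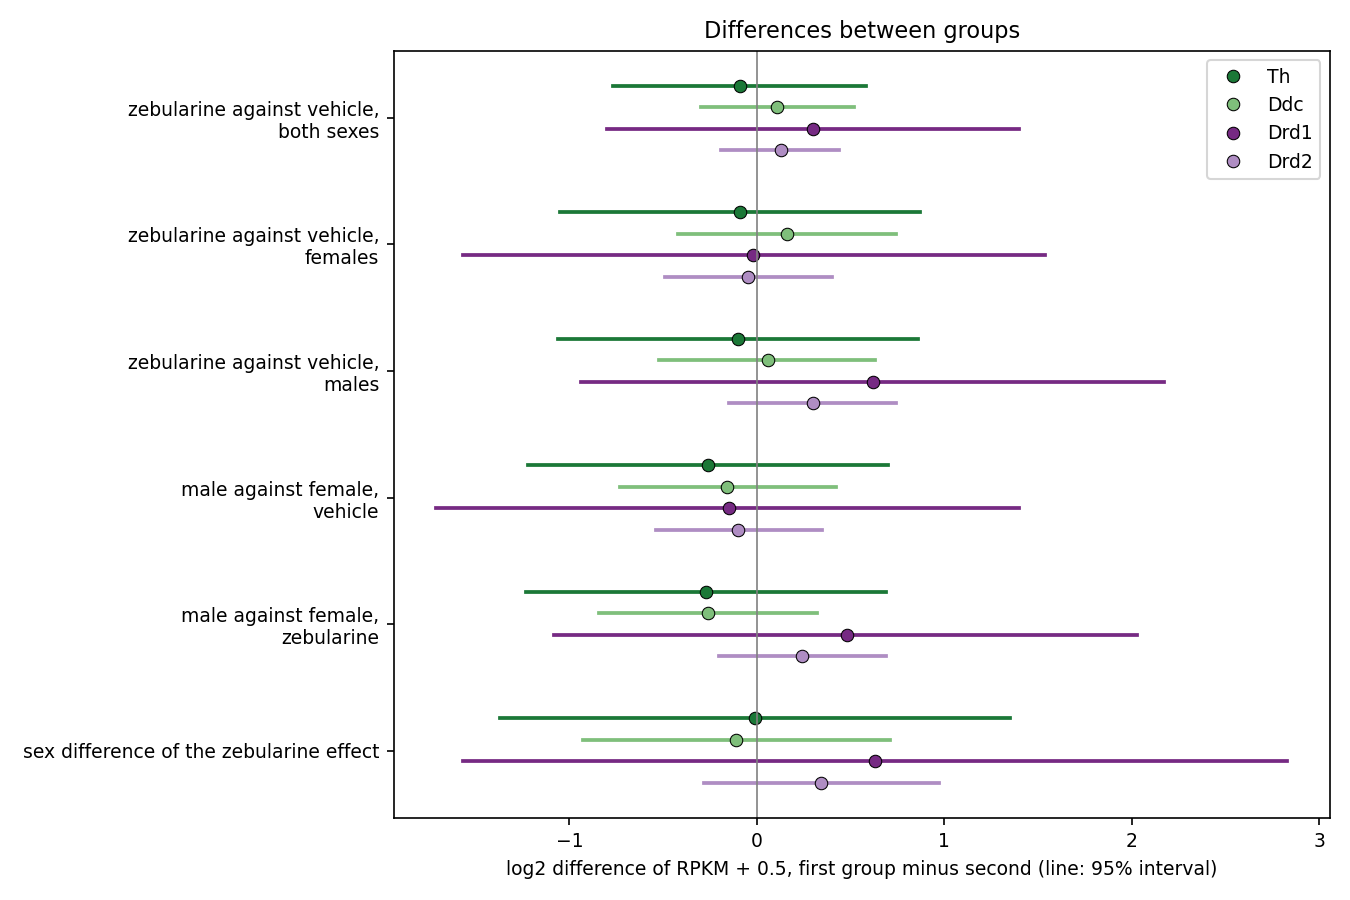
Log2 differences of RPKM + 0.5 between groups (horizontal axis) for Th, Ddc, Drd1 and Drd2 in 6 comparisons (vertical axis); points are limma estimates and lines 95% intervals, first-named group minus second. All 24 intervals include 0, and those of Drd1 are the widest, as in the difference of the zebularine effect from -1.57 to 2.83.

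The spread between libraries of a group was large for these genes compared with others. The residual SD of Drd1 on the log2 scale was 1.01, above that of 99.6% of the 16310 tested genes, whose median was 0.14. Th had a residual SD of 0.62, above 95.8% of tested genes, and Ddc one of 0.37, above 87.1%. Drd2, at 0.27, lay above 79.1% of all tested genes and above 67.6% of the 4018 genes whose mean level was within 2-fold of its own. Against genes of similar mean level, Drd1, Th and Ddc stood above 99.5%, 95.6% and 88.6%.

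This spread had a shape: the 2 enzymes varied together, the 2 receptors varied together, and the enzymes were low where the receptors were high. On the log2(RPKM + 0.5) scale over 12 libraries, Th and Ddc correlated at r = 0.91 and rho = 0.88 (permutation p = 5e-05 and 0.00033, adjusted over 6 pairs to 0.0003 and 0.00098). Drd1 and Drd2 correlated at r = 0.85 and rho = 0.82 (permutation adjusted p = 0.00135 and 0.00269). Th correlated with Drd1 at r = -0.79 and rho = -0.81 (permutation adjusted p = 0.00189 and 0.00269) and with Drd2 at r = -0.82 and rho = -0.88 (permutation adjusted p = 0.00136 and 0.00098). Ddc correlated with Drd1 at r = -0.68 and rho = -0.75 (permutation adjusted p = 0.0125 and 0.00683) and with Drd2 at r = -0.77 and rho = -0.87 (permutation adjusted p = 0.00324 and 0.00098).

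The pattern was present inside the groups. With the 4 group means removed, r was 0.95 for Th and Ddc, 0.85 for Drd1 and Drd2, and between -0.90 and -0.74 for the 4 pairs of an enzyme and a receptor (exact permutation within groups, adjusted p of at most 0.00386). Without the 2 libraries farthest from the median of the first-named gene, r was 0.86 for Th with Ddc, -0.84 for Th with Drd1, -0.86 for Th with Drd2 and -0.70 for Ddc with Drd2, and these still passed. The other 2 pairs rested in part on such libraries: r was -0.53 for Ddc with Drd1 without vehicle female replicate 1 and zebularine female replicate 1 (permutation adjusted p = 0.101), and 0.62 for Drd1 with Drd2 without zebularine male replicate 1 and vehicle female replicate 1 (permutation adjusted p = 0.0650). Without zebularine female replicate 3, the library that stood apart, r was 0.91 for Th with Ddc, 0.85 for Drd1 with Drd2 and between -0.83 and -0.67 for the 4 pairs of an enzyme and a receptor, all past the threshold. That library had 2.47 RPKM of Th, 3.72 of Ddc, 6.24 of Drd1 and 2.89 of Drd2.

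The 4 libraries with the lowest Th, from 1.92 to 2.47 RPKM, were vehicle male replicate 1, vehicle female replicate 1, zebularine male replicate 1 and zebularine female replicate 3, 1 from each group. They were also the 4 with the lowest Ddc and the 4 with the highest Drd2, and they included 4 of the 5 with the highest Drd1. At the opposite end, zebularine female replicate 1 and vehicle female replicate 3 had the 2 highest values of both enzymes and the 2 lowest values of Drd1. The ratio of Drd1 to Th accordingly ran from 0.246 in zebularine female replicate 1 to 7.91 in zebularine male replicate 1, a 32.1-fold range. The ratio of Ddc to Th ran from 0.958 to 1.81, a 1.89-fold range. It was 1.48 or more in each of the 4 libraries with low Th and in zebularine female replicate 2. The ratio of Drd1 to Drd2 ran from 0.661 to 4.78.

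**Figure D3:**
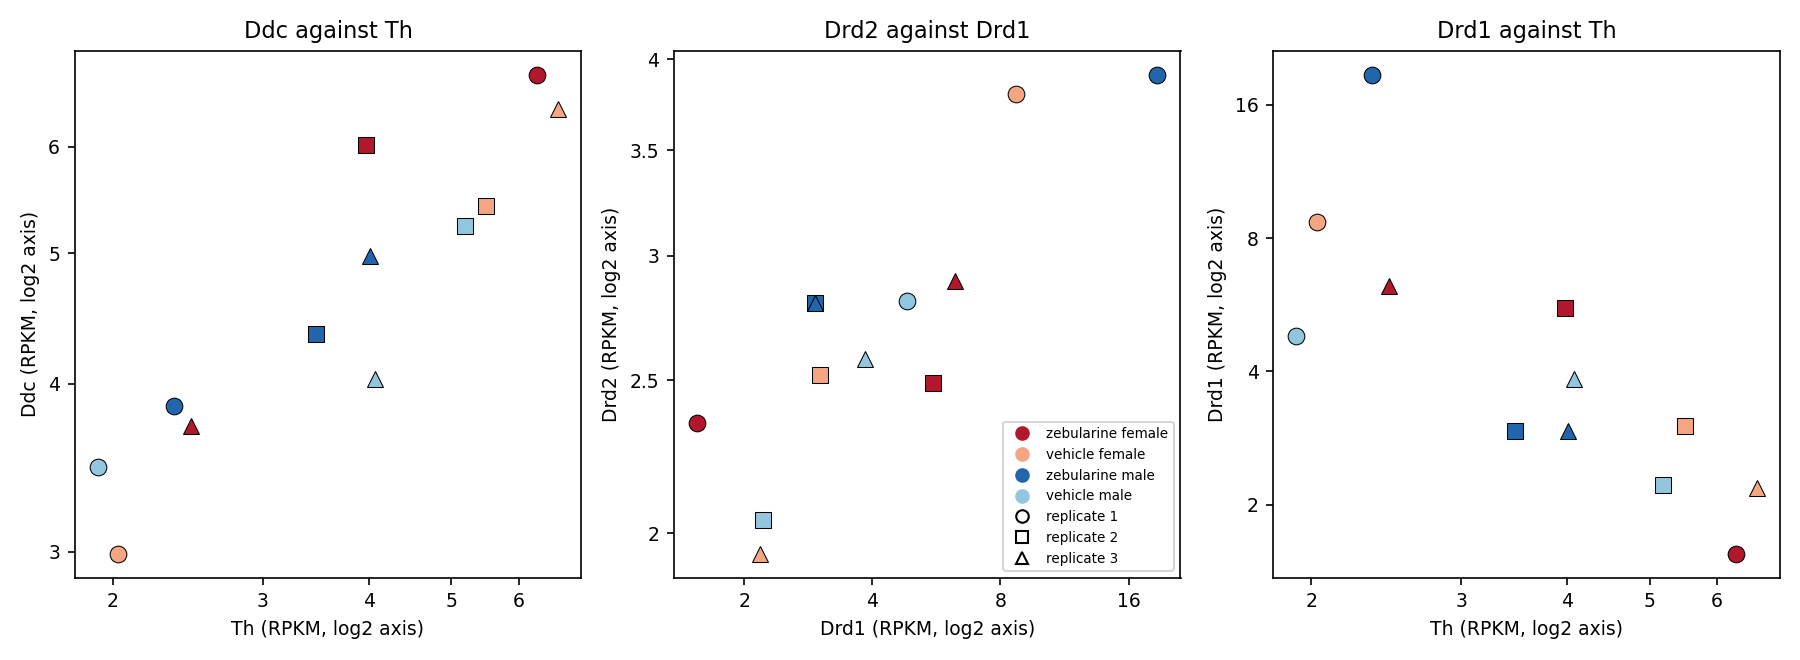
Levels of Ddc against Th, Drd2 against Drd1 and Drd1 against Th in 12 libraries (RPKM, log2 axes); colours are groups and shapes replicate numbers, and zebularine male replicates 2 and 3 coincide in the middle panel. Enzymes rise together (r = 0.91), receptors rise together (r = 0.85), and Drd1 is high where Th is low (r = -0.79), with every group spread along each trend.

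The 4 genes moved with the second principal component of the libraries. On the second principal component of the other 16306 tested genes, with 16.3% of the variance, zebularine male replicate 1 scored -25.1 and vehicle female replicate 1 scored -17.0, the 2 lowest. Zebularine female replicate 1 scored highest, at 19.7, followed by vehicle male replicate 2 at 14.9 and vehicle female replicate 3 at 13.6. The sign of the scores is arbitrary and was set so that Th correlates positively. Th correlated with the score at r = 0.81 and rho = 0.78, and Ddc at r = 0.83 and rho = 0.82 (permutation p adjusted over 4 relations of 0.00194, 0.00435, 0.00149 and 0.00220). Drd1 correlated with the score at r = -0.89 and rho = -0.92, and Drd2 at r = -0.81 and rho = -0.83 (permutation adjusted p = 0.00028, 0.0004, 0.00149 and 0.00220). With the group means removed, r was 0.83 for Th, 0.82 for Ddc, -0.94 for Drd1 and -0.91 for Drd2. Without zebularine male replicate 1 and vehicle female replicate 1, r was 0.73 for Th, 0.82 for Ddc and -0.78 for Drd1, and for Drd2 it was -0.59 and did not pass (permutation adjusted p = 0.0733). This relation was examined after the values had been seen. Genes were not scaled to equal spread, so genes that vary widely weigh more in the component. The share of other tested genes that follow it as closely was not counted, so the relation is not shown to be particular to these 4. What the component follows was not tested.

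**Figure D4:**
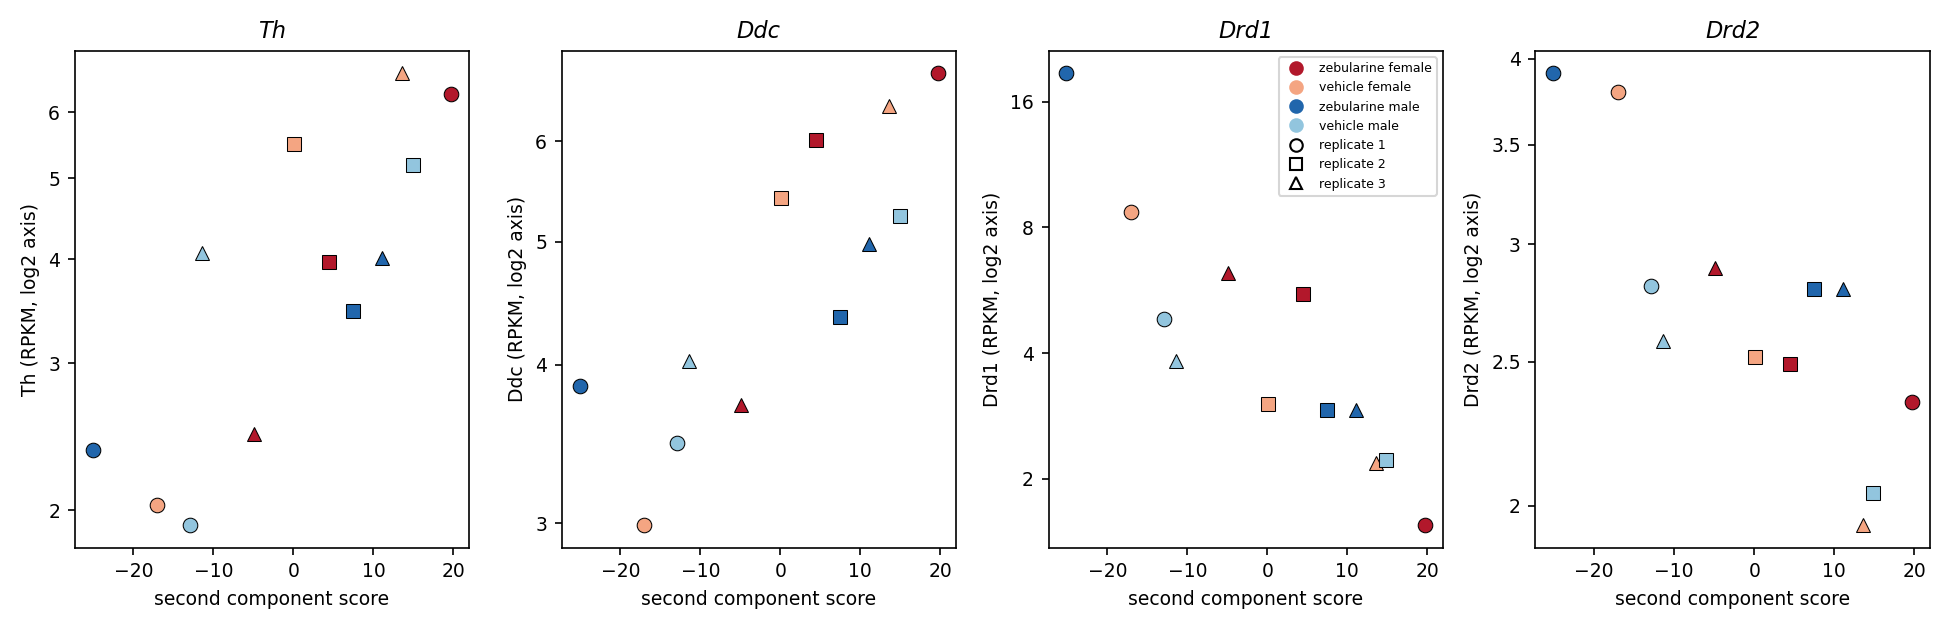
Levels of Th, Ddc, Drd1 and Drd2 (RPKM, log2 axis) against the score of each library on the second principal component of the other 16306 genes (horizontal axis, arbitrary units). Th and Ddc rise with the score (r = 0.81 and 0.83), Drd1 and Drd2 fall with it (r = -0.89 and -0.81), and the zebularine and vehicle libraries are spread along the same axis.

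Each member had other genes that closely followed its course over the 12 libraries. Of 14370 other genes with a mean of at least 1 RPKM, 63 correlated with Drd1 at r of at least 0.9 and 19 at r of at most -0.9. The counts were 31 and 13 for Th, 15 and 4 for Ddc, and 8 and 11 for Drd2. Among the genes ranked by likeness to Th, Ddc came 21st, and among those ranked by likeness to Ddc, Th came 8th. Drd2 came 124th for Drd1, and Drd1 came 39th for Drd2. All of these values come from the same 12 libraries, the counts were not made for other genes as a baseline, and the ranks carry no test.

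The gene most like Drd1 was ENSRNOG00000017828, with r = 0.987 over 12 libraries and 0.992 with group means removed. It stood at 4.27 RPKM in zebularine male replicate 1 and 1.92 RPKM in vehicle female replicate 1, and between 0.441 and 1.56 RPKM in the other 10 libraries. The gene most like Th was ENSRNOG00000011824 (r = 0.959), whose values ran from 7.61 RPKM in vehicle male replicate 1 to 35.9 RPKM in vehicle female replicate 3, the same lowest and highest libraries as for Th. For Ddc it was ENSRNOG00000019358 (r = 0.940), highest in zebularine female replicate 1 at 5.06 RPKM. For Drd2 it was ENSRNOG00000013213 (r = 0.968), highest in vehicle female replicate 1 at 12.8 RPKM and next in zebularine male replicate 1 at 12.3 RPKM. None of these 4 genes passed the test of zebularine over both sexes (limma adjusted p from 0.853 to 0.991), and the files do not pair their identifiers with names.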

How the data were processed

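RNA-seq was performed on 12 preoptic area libraries. Per the labels' protocols, RNA was extracted with Trizol, and TopHat is named in the submitters' processing notes. For the counter, genome build, annotation and strand setting nothing is stated in the sources used here, so reads of overlapping genes may be shared. The authors deposited RPKM for 29516 Ensembl identifiers per library. Each gene's values step by what 1 read is worth, which gave reads and gene model lengths. Such a step was found for 100% of the 23427 genes above 0 in any library, within 2e-09 of a read.

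A gene was tested where 3 or more libraries reached 0.5 RPKM, which left 16310. The model in limma (3.58.1, under R 4.3.3, with a trended eBayes prior) took log2 of RPKM plus a pseudocount of 0.5 and held 4 group means over 12 libraries with 1 shared spread. P-values were adjusted by Benjamini-Hochberg across the 16310 genes, and an adjusted p under 0.05 counted as passing. Fold changes on this scale understate changes of low genes. The fit was tested on simulated data in which the spread was set alike for all genes. That test does not show what the fit can detect in genes as variable as Drd1 and Th. Correlations used 100000 resamples, two-sided, in Python 3.11.15 with scipy 1.17.1. Promoters came from RefSeq (GRCr8) and matched all 4 genes by symbol.

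The named genes are the 4 members and, for each, the gene with the highest Pearson r among genes of at least 1 RPKM. Lists of pathway, striatal and preoptic genes were set up by symbol but are not analysed here, since no table matched the identifiers. The members and lists were chosen with earlier results of these data known. Groups and replicate numbers come from the titles. The numbers were not treated as pairing the libraries, since nothing in the labels ties them to a litter or day. Alternatives were other scalings, pseudocounts, filters, weights, blocks, limma-voom on recovered reads, only the compared groups, and each library left out.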

Additional observations from a re-analysis of the deposited data

How the results depend on the processing

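Over 568 refits of the 24 member results, 0 passed the threshold (smallest limma adjusted p 0.529), and 47 had the opposite sign, 38 of them with a library left out. With each library left out, the log2 difference for zebularine over both sexes ran from -0.32 to 0.05 for Th, -0.04 to 0.23 for Ddc, -0.11 to 0.57 for Drd1, 0.03 to 0.24 for Drd2. With each library left out, the log2 difference for zebularine in females ran from -0.55 to 0.21 for Th, -0.13 to 0.40 for Ddc, -0.38 to 0.53 for Drd1, -0.23 to 0.18 for Drd2. With each library left out, the log2 difference for zebularine in males ran from -0.46 to 0.16 for Th, -0.06 to 0.20 for Ddc, -0.21 to 1.03 for Drd1, 0.16 to 0.38 for Drd2. With each library left out, the log2 difference for males against females under vehicle ran from -0.72 to 0.10 for Th, -0.45 to 0.04 for Ddc, -0.52 to 0.37 for Drd1, -0.28 to 0.12 for Drd2. With each library left out, the log2 difference for males against females under zebularine ran from -0.57 to 0.03 for Th, -0.50 to -0.11 for Ddc, -0.35 to 0.89 for Drd1, 0.10 to 0.32 for Drd2. With each library left out, the log2 difference for the sex difference of the zebularine effect ran from -0.37 to 0.45 for Th, -0.34 to 0.18 for Ddc, -0.20 to 1.05 for Drd1, 0.12 to 0.53 for Drd2.

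Array weights gave 0.07 for Th over both sexes, 0.17 for Th in males, 0.20 for Th in the sex difference of the effect, and 0.13 for Drd1 and 0.02 for Drd2 between males and females under vehicle. Quantile normalization gave 0.04 for Th in the sex difference of the effect. A block on the number in the file names, added after seeing the data, gave 0.35 for Drd1 in females, -0.03 for Ddc in males and 0.10 for Th between males and females under vehicle. The causes were not tested.

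Counts of genes called moved more. With a library left out, they ran from 11 (without zebularine male replicate 1) to 113 (without zebularine female replicate 1) for zebularine over both sexes, where all libraries gave 66. They ran from 0 to 57 in females (7 with all libraries) and 3 to 18 between the sexes under zebularine (5), both highest without zebularine female replicate 1, and from 0 to 15 in males (0), highest without zebularine female replicate 3. Other moved counts for zebularine were 6 over both sexes with the file name block. In females they were 4 with a pseudocount of 0.1, 1 with limma-voom on recovered reads, 1 with only the compared groups and 2 with the file name block. In males they were 2 with a pseudocount of 0.1, 4 with array weights and 4 with only the compared groups. Between the sexes under vehicle (2) they were 5 with no filter on low values, 1 with the file name block and 1 with only the compared groups. Under zebularine (5) they were 3 with limma-voom, 2 with the file name block and 1 with only the compared groups. For the sex difference of the effect (0) the count was 2 with no filter.

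With the replicate number as a block, the member log2 changes over both sexes were -0.09 for Th, 0.11 for Ddc, 0.30 for Drd1 and 0.13 for Drd2, which a block that is balanced over the groups cannot alter, and the counts became 9 over both sexes, 1 in females and 3 between the sexes under zebularine. Deviations from the group means gave no uniform pairing by number. The 18 same-numbered pairs had correlations from -0.30 to 0.30, and the 36 other pairs from -0.29 to 0.23. A correlation over 0.1 was reached by 5 of the 18 and also by some of the 36. Of 12 libraries, 4 correlated best with one of their own number. Replicate 1 of vehicle females, vehicle males and zebularine males correlated with one another at 0.16 to 0.30. Zebularine female replicate 1 correlated with them at -0.30 to -0.11. What these libraries share was not tested.

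Ddc exceeded Th by 0.18 in vehicle libraries alone and 0.39 in zebularine libraries alone, with exact permutation adjusted p = 0.562 and 0.0938. In zebularine libraries Ddc was higher in 6 of 6, so the unadjusted p was the smallest that 6 libraries can give, and missing the threshold there says nothing about stability. Under vehicle, Ddc was higher in 1 of 3 females and 2 of 3 males. Drd1 against Ddc ran from -0.35 to 0.01 with a library left out. Without the 2 libraries farthest from the median, r fell short of the threshold at -0.53 for Ddc with Drd1, 0.62 for Drd1 with Drd2 and -0.59 for Drd2 with the second component. The correlations rest on 12 libraries, and reads of the members per library, from 74 to 1274, limit single values.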
